A study of Mus musculus with 16 samples.

Results

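The small heat shock proteins of muscle were followed here as 7 genes: Hspb1, Hspb2, Hspb3, Hspb6, Hspb7, Hspb8 and Cryab. They were chosen by name, as the rows of the deposited gene count table whose Ensembl identifiers carry these symbols. The table holds 55487 genes, of which 18275 had enough counts to be tested, and all 7 members were among the latter. RNA-Seq of polyadenylated RNA was performed on the apex of male mouse hearts collected 4 weeks after an operation, with 16 libraries in 4 groups of 4. Transverse aortic constriction (TAC) ties the aortic arch around a needle that is then withdrawn, so that the left ventricle pumps against a raised pressure; in the sham operation the chest was opened but the aorta was not tied. Ctrl mice had the genotype WT, and KO mice lacked the lncRNA Cardinal (Gm12295), the mouse counterpart of human CARDINAL. The groups were named for both (Ctrl or KO, then sham or TAC), and each library came from an animal with its own number. The deletion was made with CRISPR/Cas9 and is not limited to a cell type by its label; the strain, the number of founder lines and the age were not given in the sources used here.

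Small heat shock proteins are chaperones that need no ATP. They share an α-crystallin domain, assemble into oligomers or pairs, and hold unfolding proteins until ATP-driven chaperones such as HSPA8 refold them or hand them on for degradation. Heart and skeletal muscle hold more members of this family than most tissues, and there the proteins are found on desmin filaments, actin filaments and the Z-disc, the plate that anchors the thin filaments of the sarcomere. CRYAB (αB-crystallin) binds desmin and titin. HSPB1 (Hsp25 in the mouse) is phosphorylated by the kinase MAPKAPK2 and acts on actin filaments. HSPB2 binds the myotonic dystrophy protein kinase DMPK and pairs with HSPB3. HSPB6 (Hsp20) is a target of protein kinase A. HSPB7 (cvHsp) is largely limited to heart and skeletal muscle, where it binds filamin C. HSPB8 works with the co-chaperone BAG3 in the clearance of damaged Z-disc proteins. Part of the family is driven by heat shock factor 1 (HSF1), which binds the heat shock element, a run of the letters GAA and their reverse complement TTC in alternation.

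The members lie on 5 chromosomes of GRCm38. Hspb1 (ENSMUSG00000004951) is at chr5:135887919-135889563 on the + strand, Hspb8 (ENSMUSG00000041548) at chr5:116408491-116422864 on the - strand, Hspb3 (ENSMUSG00000051456) at chr13:113662896-113663676 on the - strand with 1 exon, Hspb6 (ENSMUSG00000036854) at chr7:30552178-30555443 on the + strand and Hspb7 (ENSMUSG00000006221) at chr4:141420779-141425311 on the + strand. Hspb2 (ENSMUSG00000038086, chr9:50751078-50752354, - strand) and Cryab (ENSMUSG00000032060, chr9:50751325-50756636, + strand) stand head to head and share 252 exon bases. Counting by strand was not stated for these files, so reads from those 252 bases cannot be assigned to either gene. Hspb6 shares 122 exon bases with Proser3 and 3 with Lin37, both on the other strand, and 77 with the miRNA gene Gm38670 on its own strand. Hspb1 has a processed pseudogene, Hsp25-ps1 (ENSMUSG00000078915), whose transcript matches it over 441 bases at 99.8% identity, and the gene Gm9817 holds the reverse complement of 477 of its bases at 99.8% identity. Reads from these stretches of Hspb1 could be split with those copies. A search of all annotated transcripts gave no other match of at least 100 bases and 85% identity to a member.

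The sequences just before the transcription starts are shown as a description, and whether they bear on the levels of the members was not tested. The RefSeq promoter table (GRCm38.p6) held an entry for 5 of the 7 members, and Hspb2 and Cryab had none. Each line runs 5′ to 3′ on the strand of the gene, with matches to the paired heat shock element GAANNTTC in capitals; TTCNNGAA, the same pair facing outward, was searched as well. The lines for Hspb1 (chr5:135887669-135887918, + strand), Hspb3 (chr13:113663677-113663926, - strand) and Hspb7 (chr4:141420529-141420778, + strand) hold the 250 bases before the start. The line for Hspb6 (chr7:30553063-30553262, + strand) holds 200 bases before the second of its 2 listed starts, and that for Hspb8 (chr5:116422845-116422874, - strand) 30 bases across its start.
Hspb1: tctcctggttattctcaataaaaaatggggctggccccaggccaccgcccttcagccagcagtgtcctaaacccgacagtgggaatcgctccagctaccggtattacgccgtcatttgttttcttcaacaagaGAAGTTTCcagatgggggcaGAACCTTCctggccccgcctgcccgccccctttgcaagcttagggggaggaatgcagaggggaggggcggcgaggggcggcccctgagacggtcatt
Hspb8: cagaagccaggaGAAGTTTCtaggctcgcg
Hspb6: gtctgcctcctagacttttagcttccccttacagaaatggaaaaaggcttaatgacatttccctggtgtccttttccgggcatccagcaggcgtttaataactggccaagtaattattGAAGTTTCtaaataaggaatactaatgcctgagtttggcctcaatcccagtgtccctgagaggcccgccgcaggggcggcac
Hspb3: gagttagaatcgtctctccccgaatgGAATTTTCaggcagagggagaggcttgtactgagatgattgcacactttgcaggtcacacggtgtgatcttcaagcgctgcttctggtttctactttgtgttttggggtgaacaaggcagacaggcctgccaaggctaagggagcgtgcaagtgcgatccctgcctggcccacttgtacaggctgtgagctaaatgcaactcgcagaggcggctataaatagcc
Hspb7: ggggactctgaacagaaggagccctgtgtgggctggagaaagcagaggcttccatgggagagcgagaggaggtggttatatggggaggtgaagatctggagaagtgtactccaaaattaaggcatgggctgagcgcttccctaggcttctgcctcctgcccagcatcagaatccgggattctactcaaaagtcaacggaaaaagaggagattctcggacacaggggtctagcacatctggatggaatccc

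The 300-base entry of Hspb1 held 2 matches to GAANNTTC, at -117 to -110 and -97 to -90, counted from the start. The same letters GAAGTTTC as in the first of these stood at -120 to -113 from the second start of Hspb6 and at bases 3 to 10 of the Hspb8 transcript, and Hspb3 had 1 match at -224 to -217. The Hspb7 entry and the first Hspb6 entry had none. Of all 32851 promoter entries of this length, 7.86% held GAANNTTC, so that 4 of the 5 members with an entry having a match are to be read against that share. TTCNNGAA, found in 8.52% of all entries, and the run of 3 units TTCNNGAANNTTC or its reverse complement GAANNTTCNNGAA, found in 0.603%, matched none of the 5 members with an entry. Hspb2 and Cryab could not be searched. Hspb3 also held a MEF2 site at -12 to -3, a motif found in 3.19% of entries, overlapping a TATAAA box at -11 to -6 (13.6% of entries), and the second Hspb6 entry had a TATAAA box at -29 to -24. No member's entry matched a CArG box (1.63% of entries). The first Hspb6 entry held 4 matches to the CCAAT box on either strand, against 37.4% of entries with at least 1. All motifs were searched on both strands.

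The libraries held 53169437 to 79404714 counts, of which 21.95 to 28.78% came from mitochondrially encoded genes. Levels are given as CPM, the counts of a gene scaled by TMM to a common library size, and group values are means ± SD (n = 4). Cardinal itself lay between 3.25 and 3.86 CPM in Ctrl sham and between 0.297 and 0.553 CPM in KO sham. In 3 of the KO TAC libraries it was 0.371, 0.276 and 0.368 CPM, but in KO TAC 4 it was 4.55 CPM, above every Ctrl sham library. The library labelled KO TAC 4 therefore goes against its label. For the fit to all 16 libraries without added terms, the members' fold changes that use KO TAC 4 are also given without it. Group means, sums and ranges include it, as do the later fits that take animal numbers into account. Ctrl TAC 1 had the highest level, 8.03 CPM. The titles carry animal numbers, and 4 sham libraries (Ctrl sham 4 and KO sham 1, 2 and 3) have one that begins with 33, while 4 of the TAC libraries (KO TAC 4 and Ctrl TAC 2, 3 and 4) have one that begins with 25. What these numbers stand for was not given, and both series are followed below.

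Per kilobase of exon, Hspb7 and Cryab were the most abundant members. In Ctrl sham, Hspb7 stood at 623 ± 22.4 CPM per kilobase and Cryab at 585 ± 31.9, the ranks 63 and 68 among 18256 genes, and their spreads met. Hspb6 followed at 236 ± 11.1, Hspb1 at 172 ± 109.3, Hspb8 at 147 ± 9.98, Hspb2 at 49.7 ± 5.72 and Hspb3 at 5.06 ± 0.634, all in CPM per kilobase with n = 4. The place of Hspb1 between Hspb6 and Hspb8 was not separated by the spread between its libraries, while Hspb2 and Hspb3 were clear of their neighbours in that order. After TAC in Ctrl hearts the order was the same, with Hspb7 at 932 ± 48.7, Cryab at 742 ± 56.8, Hspb6 at 399 ± 6.87, Hspb1 at 221 ± 32.5, Hspb8 at 212 ± 14.8, Hspb2 at 48.7 ± 3.12 and Hspb3 at 6.92 ± 0.825 CPM per kilobase. Here Hspb7 no longer met Cryab, and Hspb1 and Hspb8 did not differ beyond their spread. With the length of the longest transcript in place of all exons, Cryab stood above Hspb7, at 775 CPM per kilobase in Ctrl sham and 983 in Ctrl TAC. The order of these 2 genes thus depends on which length is used.

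Summed over the 7 members, the level was 1818 ± 150.8 CPM per kilobase in Ctrl sham, 1988 ± 159.4 in KO sham, 2561 ± 46.0 in Ctrl TAC and 2424 ± 117.4 in KO TAC. The sham libraries lay between 1699 and 2172 and the TAC libraries between 2295 and 2618, without overlap. Hspb7 gave 34.5% of the sum in Ctrl sham and 36.4% in Ctrl TAC, Cryab 32.3% and 29.0%, and Hspb6 13.1% and 15.6%. Hspb2 made up 2.73% of the sum in Ctrl sham and 1.90% in Ctrl TAC.

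**Figure D1:**
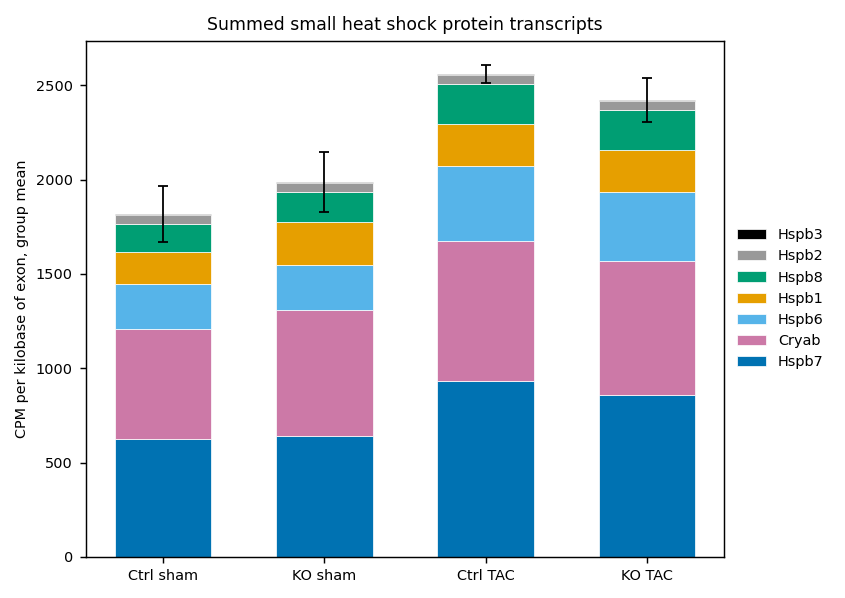
Group means of the 7 members in CPM per kilobase of exon, stacked, with the SD of the summed level over 4 libraries as the error bar. The sum was 1818 in Ctrl sham and 2561 in Ctrl TAC, and most of it was Hspb7, Cryab and Hspb6; Hspb3 is too low to be seen.

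The first comparison asked which members responded to pressure overload in Ctrl hearts. Of the 7 members, 5 rose after TAC (Hspb6, Hspb7, Hspb8, Hspb3 and Cryab), by 1.27-fold to 1.69-fold, and 2 did not pass the test (Hspb1 and Hspb2). The calls of Hspb3 and Cryab were lost with a term for animal numbers starting with 25 (adjusted p = 0.086 and 0.0662 by edgeR). That term is set in part by KO TAC 4, the library that goes against its label, and was not fitted without it. In each of the 5 that rose, all 4 Ctrl TAC libraries were above all 4 Ctrl sham libraries. A gene was called at an adjusted p below 0.05 in edgeR's quasi-likelihood test, with the Benjamini-Hochberg adjustment over all genes tested. By that rule 10.4% of all genes were called higher and 20% called in either direction, and 10.5% had Ctrl TAC above Ctrl sham without overlap. The median log2 fold change was 0.45 over the 7 members and 0.0043 over all genes.

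Hspb6, the protein kinase A target, had the largest fold change of the members called. Hspb1 exceeded it in both genotypes once the animals numbered 33 were left out or given a term. Those settings take out the sham libraries in which Hspb1 was high, as described further on. The levels of Hspb6 were 566, 516, 563 and 527 CPM in Ctrl sham, 554, 535, 546 and 557 in KO sham, 927, 926, 894 and 921 in Ctrl TAC, and 921, 758, 824 and 845 in KO TAC. Every TAC library was above every sham library, and the 4 Ctrl TAC libraries lay closer together than those of KO TAC. The log2 fold change after TAC was 0.76 (SE 0.0535, adjusted p = 5.5e-08 by edgeR) in Ctrl and 0.61 (SE 0.0534, adjusted p = 1.19e-07) in KO.

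Hspb7, the filamin C partner, was the most abundant member by counts. It was at 1767, 1646, 1782 and 1709 CPM in Ctrl sham, at 1862, 1623, 1732 and 1861 in KO sham, at 2507, 2722, 2661 and 2430 in Ctrl TAC and at 2352, 2146, 2451 and 2562 in KO TAC. The sham and TAC libraries did not overlap in either genotype. Its log2 fold change was 0.58 (SE 0.0618, adjusted p = 3.54e-06 by edgeR) in Ctrl and 0.43 (SE 0.0617, adjusted p = 3.31e-05) in KO.

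Hspb8, the partner of BAG3, had 277, 277, 274 and 315 CPM in Ctrl sham and 303, 307, 335 and 286 in KO sham. After TAC it had 417, 376, 411 and 446 CPM in Ctrl and 438, 414, 399 and 418 in KO. The highest sham libraries, Ctrl sham 4 and KO sham 3, both belong to the animals numbered 33, and they still lay below every TAC library. The log2 fold change was 0.53 (SE 0.0620, adjusted p = 1.02e-05 by edgeR) in Ctrl and 0.44 (SE 0.0619, adjusted p = 2.52e-05) in KO.

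Hspb3, the pairing partner of HSPB2 and the least abundant member, was represented by 189 to 479 counts per library. It was at 4.00, 4.02, 3.30 and 4.50 CPM in Ctrl sham, 3.83, 4.88, 4.56 and 3.32 in KO sham, 5.42, 4.72, 6.26 and 5.21 in Ctrl TAC, and 5.24, 6.20, 5.95 and 5.78 in KO TAC. The sham and TAC libraries of each genotype did not overlap, although KO sham 2 lay above Ctrl TAC 2. Its log2 fold change was 0.45 (SE 0.126, adjusted p = 0.016 by edgeR) in Ctrl and 0.48 (SE 0.126, adjusted p = 0.00588) in KO. The call in Ctrl was lost without Ctrl sham 3 (adjusted p = 0.0578) or without Ctrl TAC 3 (adjusted p = 0.0568).

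Cryab, the desmin chaperone, rose in Ctrl hearts, a call that was lost with the term for numbers starting with 25 (0.31, adjusted p = 0.0662 by edgeR). Its levels were 841, 842, 844 and 937 CPM in Ctrl sham, 1041, 957, 1110 and 863 in KO sham, 1101, 1009, 1070 and 1210 in Ctrl TAC, and 1102, 1084, 909 and 1110 in KO TAC. Ctrl TAC lay above Ctrl sham without overlap, whereas KO sham and KO TAC covered much the same range. The log2 fold change was 0.34 (SE 0.0798, adjusted p = 0.00503 by edgeR) in Ctrl and 0.083 (95% interval -0.085 to 0.25, adjusted p = 0.46) in KO. The difference between these 2 changes, tested as the interaction of genotype and surgery, was -0.26 (SE 0.113) with an adjusted p of 0.403, so that Cryab was not shown to respond differently in the 2 genotypes. The 3 highest KO sham libraries all have animal numbers starting with 33.

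Hspb1, the mouse Hsp25, had the widest spread of the 7. It was at 111, 124, 127 and 346 CPM in Ctrl sham, 244, 224, 344 and 123 in KO sham, 265, 214, 189 and 244 in Ctrl TAC, and 240, 261, 189 and 232 in KO TAC. In the sham groups the libraries fell into a low and a high set, and the TAC libraries lay above the low set and below the top of the high set. The log2 fold change after TAC was 0.37 (95% interval -0.43 to 1.16, adjusted p = 0.548 by edgeR) in Ctrl and -0.021 (95% interval -0.81 to 0.77, adjusted p = 0.974) in KO, intervals wide enough to hold a doubling in Ctrl.

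Hspb2, the DMPK-binding member, did not pass the test in either genotype. It was at 42.9, 36.1, 39.6 and 47.3 CPM in Ctrl sham, 41.5, 36.3, 39.6 and 47.4 in KO sham, 39.0, 38.1, 43.9 and 41.6 in Ctrl TAC and 37.5, 36.5, 34.0 and 42.3 in KO TAC. All 4 groups overlapped. The 95% interval of its log2 fold change after TAC ran from -0.22 to 0.16 in Ctrl and from -0.32 to 0.056 in KO, which leaves out the change of Hspb6 in either genotype. With Cryab, with which it shares exon bases, it had no common course: across the 16 libraries Pearson's r of their log2 CPM was -0.0285.

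**Figure D2:**
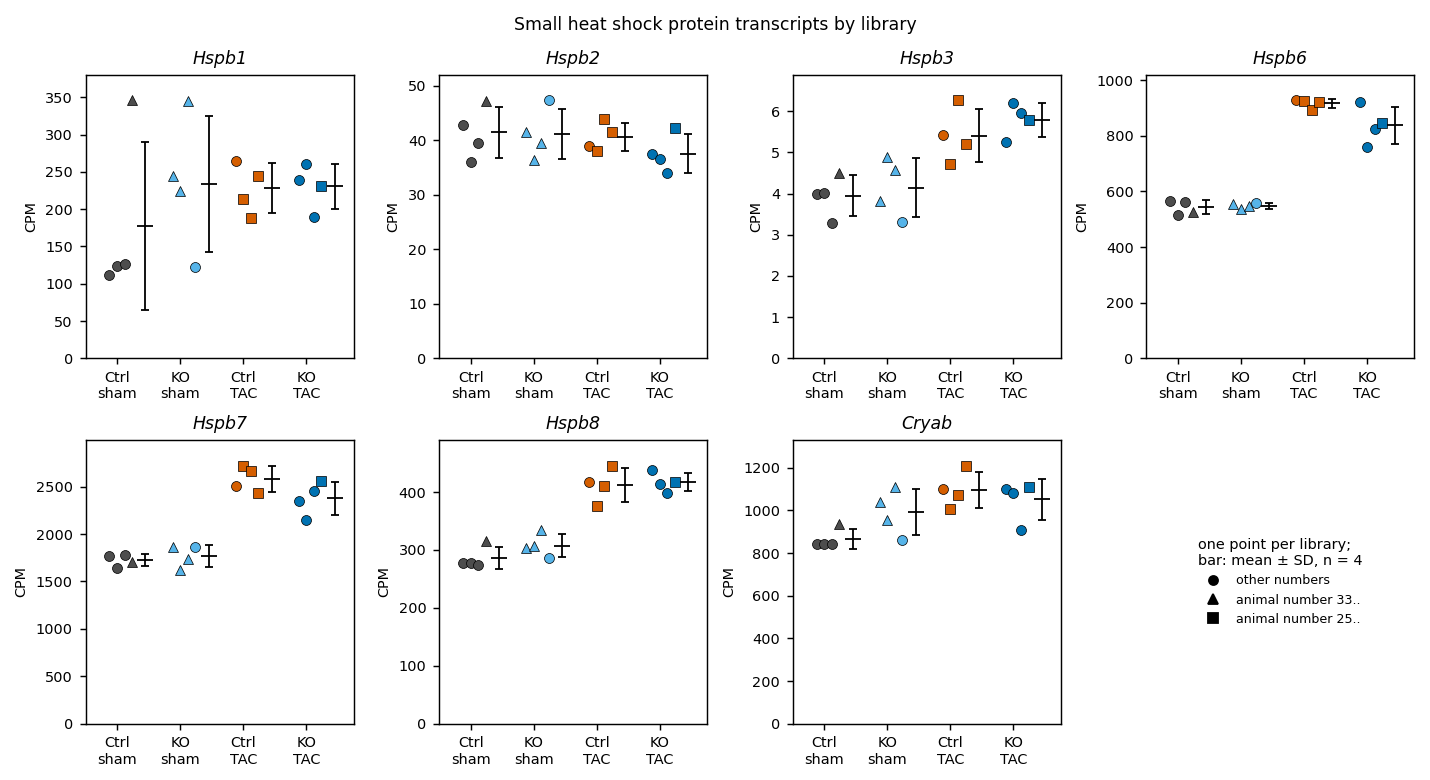
Level of each member in CPM (linear axes from 0), 1 point per library in the 4 groups, with the mean ± SD beside them. Circles, triangles and squares mark animals by the start of their number (other, 33 and 25). Hspb6 was between 516 and 566 CPM in the sham libraries and between 758 and 927 after TAC, Hspb2 overlapped in all 4 groups, and in Hspb1 the 4 triangles lay at 224 to 346 CPM against 111 to 127 for the other sham libraries.

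In KO hearts the same comparison called 4 of the 7 members, all higher (Hspb6, Hspb3, Hspb8 and Hspb7), each without overlap between KO sham and KO TAC. In this contrast 17.8% of all genes were called higher, 34.3% in either direction, and 18% were higher without overlap. The median log2 fold change was 0.43 over the members and -0.0039 over all genes. The same 4 were called without KO TAC 4, where 31% of all genes were called. Their log2 fold changes were then 0.61 for Hspb6, 0.48 for Hspb3, 0.44 for Hspb8 and 0.39 for Hspb7. Among the others, the value was 0.056 for Cryab (adjusted p = 0.676 by edgeR), -0.19 for Hspb2 (adjusted p = 0.124) and -0.023 for Hspb1 (adjusted p = 0.976). The comparison in Ctrl and that in KO have no library in common.

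The fold changes in both genotypes rest on sham groups that hold different numbers of the animals numbered 33, 1 in Ctrl and 3 in KO. Hspb1, Hspb8 and Cryab were higher in all 4 of these libraries than in the other 4 sham libraries, which was true of 3.76% of all genes. Hspb1 was at 224 to 346 CPM in them and at 111 to 127 in the others, Hspb8 at 303 to 335 against 274 to 286, and Cryab at 937 to 1110 against 841 to 863. Hspb2, Hspb3, Hspb6 and Hspb7 overlapped between these sets. The TAC libraries, none of which has such a number, held 189 to 265 CPM of Hspb1, above all 4 of the other sham libraries.

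With the number series entered as a term in the fit, the log2 fold change of Hspb1 after TAC was 0.87 (adjusted p = 0.0011 by edgeR) in Ctrl and 1.05 (adjusted p = 0.00105) in KO. With the 4 animals left out, a setting chosen after seeing the data, it was 0.91 in Ctrl and 0.91 in KO. A single sham library then stood for its group in KO and was taken to vary like the others. Without Ctrl sham 4 alone it was 0.92 in Ctrl (adjusted p = 0.0283 by edgeR). These settings compare TAC with the sham libraries in which Hspb1 was low, so its higher estimate was built in. They do not show which sham level is the right baseline. With the term for these animals, 6 members were called after TAC in Ctrl and 5 in KO, against all-gene shares of 21.1% and 26.4%. Cryab in KO hearts was at 0.28 (adjusted p = 0.133) without these animals. Numbers starting with 33 occur only among sham animals, so within that series TAC and sham could not be compared.

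Numbers starting with 25 occur only among TAC animals, 3 of them Ctrl. With that series as a term, 3 of 7 members were called after TAC in Ctrl (Hspb6, Hspb7 and Hspb8), beside 13.6% of all genes. Hspb3 then stood at 0.46 and Cryab at 0.31, neither called. Outside the series, Ctrl TAC is the single library Ctrl TAC 1, too few for a comparison within it.

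**Figure D3:**
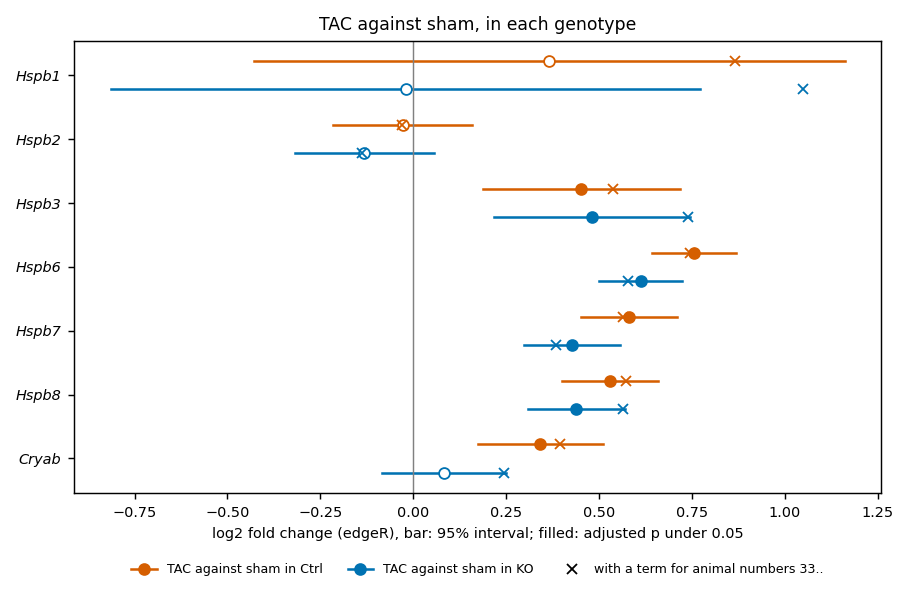
Log2 fold change after TAC in Ctrl and KO hearts by edgeR, with the 95% interval as a bar and filled circles at an adjusted p below 0.05; crosses give the value with a term for animal numbers starting with 33. Hspb6 stood at 0.76 and 0.61 and Hspb2 near 0, and the crosses moved furthest for Hspb1, to 0.87 and 1.05.

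The genes whose levels followed each member most closely were named by Pearson's r of log2 CPM over the 16 libraries, among 8175 genes with a mean of at least 10 CPM, once as measured and once after the mean of each group was subtracted. These are descriptions, since the libraries share groups and scaling. For Hspb1 the closest were Serpinh1 (r = 0.963), which encodes the collagen chaperone HSP47, the prolyl hydroxylase gene P4ha1 (r = 0.949) and the pseudogene Hsp25-ps1 (r = 0.948), which may share its reads. Hsp25-ps1 was at 9.97 to 35.5 CPM. After the group means were subtracted, the closest to Hspb1 were Hsp90aa1 (r = 0.978), the stress-inducible HSP90, then Serpinh1 (r = 0.954) and Dnajb2 (r = 0.951), a chaperone of the HSP40 class.

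Hsp90aa1 was at 104, 93.1, 111 and 459 CPM in Ctrl sham and at 299, 280, 371 and 108 in KO sham. Its high and low libraries were those of Hspb1, the likeness by which it was picked above, so the match is not a separate result. The 8 TAC libraries held 146 to 255 CPM of Hsp90aa1. Hsph1, an HSP110 exchange factor, was at 156 to 285 CPM in the animals numbered 33, at 33.4 to 49.7 in the other sham animals and at 46.1 to 103 after TAC. Hspa8, the constitutive HSP70, was at 1409 to 1622, 845 to 1002 and 1010 to 1294 CPM in the same order, and Bag3 at 261 to 319, 192 to 210 and 226 to 277 CPM. For all 3 genes, the animals numbered 33 lay above the other sham animals without overlap.

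Of the heat-inducible HSP70 genes, Hspa1a split by number without overlap, at 10.1 to 346 CPM in the animals numbered 33 and 4.30 to 6.98 CPM in the other sham animals, and Hspa1b did not. Hspa1b reached 437 CPM in Ctrl sham 4 and 186 and 191 CPM in KO sham 1 and 2, but was at 6.46 CPM in KO sham 3, close to the 4.26 to 8.11 CPM of the other sham libraries. In that library Hspb1 was at 344 CPM and Cryab at 1110 CPM, the highest Cryab level of the sham libraries. Dnajb1 likewise was at 11.2 CPM in KO sham 3 and at 50.3 to 66.7 CPM in the other 3 animals of that series. KO TAC 1 and 2, whose numbers do not start with 33, were also high. They held 55.7 and 99.15 CPM of Hspa1a, 52.5 and 97.0 of Hspa1b, and 38.3 and 48.3 of Dnajb1. KO TAC 3 and 4 were lower for each of these genes. The Ctrl TAC libraries held 8.52 to 21.7, 6.85 to 18.3 and 10.8 to 18.2 CPM in the same order. Raised levels of these genes were thus not limited to the animals numbered 33. Hsf1 was at 24.2 to 30.3 CPM in the animals numbered 33 and 22.3 to 24.9 in the other sham animals.

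**Figure D4:**
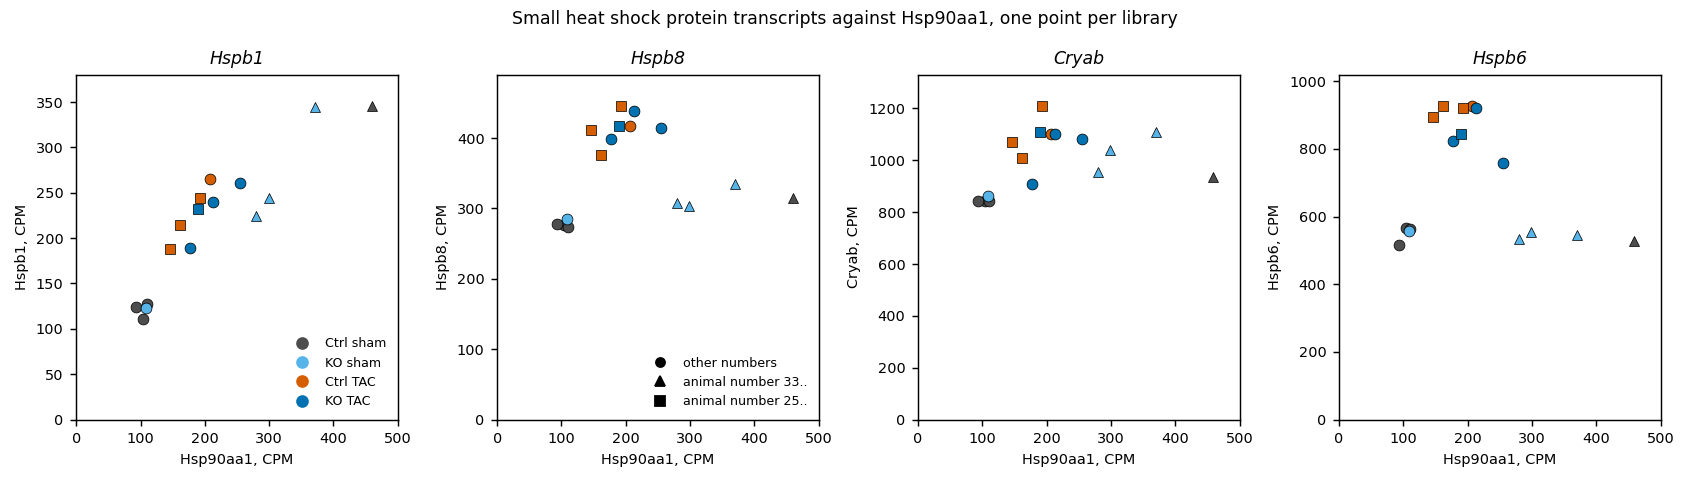
Hspb1, Hspb8, Cryab and Hspb6 (CPM, y axes) against Hsp90aa1 (CPM, x axis) in the 16 libraries, coloured by group, with the shape of the point giving the start of the animal number. Among the sham libraries Hspb1 was high where Hsp90aa1 was high, at 224 to 346 against 280 to 459 in the animals numbered 33. Hsp90aa1 was picked as the closest gene to Hspb1 with group means subtracted, so this likeness was selected. The TAC libraries held 189 to 265 of Hspb1 at 146 to 255 of Hsp90aa1, partly the same Hspb1 level at less Hsp90aa1. Hspb6 was at 516 to 566 in the sham libraries whatever the level of Hsp90aa1.

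The other members had other companions. Hspb6 was closest to Gnao1 (r = 0.983), which encodes a G protein α subunit, to Hagh (r = 0.971) and to Acta1 (r = 0.969), the skeletal muscle α-actin gene of the fetal heart programme. Acta1 was at 129 to 324 CPM in the sham libraries and at 2448 to 3915 CPM after TAC (in Ctrl, 3.91 on the log2 scale with an SE of 0.301 and an adjusted p of 1.63e-06 by edgeR). Hspb7 was closest to Masp1 (r = 0.973), Nrap (r = 0.962), which encodes a protein of myofibril assembly, and Trp53inp2 (r = 0.957), and Hspb8 to Prnp (r = 0.975), Myl12a (r = 0.975) and Adamtsl2 (r = 0.975). Hspb3 was closest to Mtpn (r = 0.922), Atox1 (r = 0.904) and Serp1 (r = 0.904), Cryab to Tomm5 (r = 0.874), Rpl7l1 (r = 0.870) and Pno1 (r = 0.868), and Hspb2 to Ssr3 (r = 0.823), Tmem230 (r = 0.757) and Zfp276 (r = 0.748).

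With the group means subtracted, Ssr3 was again the closest to Hspb2, and the closest genes of the other members, Hspb1 aside, were different ones. They were Mrps6 (r = 0.931), Smndc1 (r = 0.914) and Pdcd6 (r = 0.883) for Hspb8, and Mrps6 (r = 0.883), Dbndd2 (r = 0.877) and Rnf139 (r = 0.847) for Cryab. Hspb6 had Ubr3 (r = 0.813), Pdcd6ip (r = 0.806) and Mbd5 (r = 0.785), Hspb7 had Exoc3 (r = 0.830), Cul3 (r = 0.811) and Syde2 (r = 0.801), Hspb3 had Arl8b (r = 0.897), 4921524J17Rik (r = 0.825) and Cep85l (r = 0.800), and Hspb2 had, after Ssr3 (r = 0.869), Isca1 (r = 0.831) and Mrpl48 (r = 0.83). Only Mrps6 was shared by 2 members here. Between members, r of Hspb6 and Hspb7 was 0.969 over all libraries and 0.494 within groups. For Hspb8 and Cryab it was 0.818 and 0.847, for Hspb1 and Cryab 0.750 and 0.742, and for Hspb1 and Hspb8 0.539 and 0.788. Hspb8 had r of 0.918 with Hspb6 and 0.858 with Hspb7 over all libraries, but -0.0045 and -0.433 within groups. For Hspb3 and Hspb8 it was 0.870 and 0.503. Thus Hspb1, Hspb8 and Cryab varied together among animals of the same group, and Hspb6 with Hspb7 mainly between sham and TAC, a course that Hspb8 shared.

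The loss of Cardinal was compared next, in sham and in TAC hearts. Between KO sham and Ctrl sham, 0 of the 7 members passed, as 0% of all genes did in edgeR, and DESeq2 also called 0 members and 0.011% of all genes. The edgeR test did not call the deleted gene Cardinal here either. It was lower in KO sham without overlap (log2 fold change -2.92, unadjusted p = 0.00358 by edgeR). A count of 0 therefore does not show that the members were alike. An unadjusted p below 0.05 was reached by 2.62% of all genes. Among the members it was reached by 1, Cryab, with a log2 fold change of 0.20 (95% interval 0.029 to 0.36, unadjusted p = 0.0238, adjusted p = 1 by edgeR), higher than every Ctrl sham library in 3 of 4 KO sham libraries. Those 3 are the KO animals numbered 33. With that series as a term or without its animals the count was also 0, and without them the difference was 0.034. Hspb1 stood at 0.40 (95% interval -0.39 to 1.20) here and at -0.17 with the term. The other 5 members had differences of -0.0088 to 0.11.

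Between KO TAC and Ctrl TAC, 0 of the 7 members passed by edgeR or by DESeq2, against 2.68% of all genes by edgeR and 7.15% by DESeq2. Cardinal was not called by edgeR here either, with KO TAC 4 included (log2 fold change -1.57, adjusted p = 0.263 by edgeR). Hspb6 was the 1 member with an unadjusted p below 0.05, as were 18.5% of all genes. Its log2 fold change was -0.13 (95% interval -0.24 to -0.019, unadjusted p = 0.024, adjusted p = 0.188 by edgeR), and 3 of 4 KO TAC libraries lay below every Ctrl TAC library. Without KO TAC 4 it was -0.14 (adjusted p = 0.235). Hspb7 stood at -0.12 (95% interval -0.25 to 0.012, adjusted p = 0.319) and at -0.16 without KO TAC 4. The intervals of Hspb2, Hspb3, Hspb8 and Cryab lay within -0.30 and 0.36, and that of Hspb1 ran from -0.78 to 0.81. Without KO TAC 4, Hspb2 was at -0.17, Cryab at -0.089, Hspb3 at 0.10, Hspb8 at 0.016 and Hspb1 at 0.013, none of them called. Animal numbers starting with 25 are unevenly split here, with 3 of 4 Ctrl TAC and 1 of 4 KO TAC libraries, the latter being KO TAC 4. The 489 genes behind the share of 2.68% were 12 with that series as a term, and 63 without Ctrl TAC 2, 190 without Ctrl TAC 3, 258 without KO TAC 1, 152 without KO TAC 2, 84 without KO TAC 3 and 324 without KO sham 2, so the share is not a stable background for this comparison.

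The interaction, which asks whether TAC acted differently in KO and Ctrl hearts, also called 0 of 7 members by both tools, against 0.0109% of all genes by edgeR and 0.909% by DESeq2. By unadjusted p below 0.05 there was again 1, Cryab, given above, where 11.1% of all genes fell below that level. The estimates were -0.14 (adjusted p = 0.493) for Hspb6, -0.15 (adjusted p = 0.536) for Hspb7, -0.090 (adjusted p = 0.754) for Hspb8, 0.030 (adjusted p = 0.97) for Hspb3, -0.10 (adjusted p = 0.82) for Hspb2 and -0.39 (adjusted p = 0.844) for Hspb1. A smaller response of up to 0.30 for Hspb6 and 0.34 for Hspb7 on the log2 scale lies within their 95% intervals and could not be told from none. The count was also 0 without KO TAC 4, where Cryab stood at -0.29 (adjusted p = 0.382), Hspb7 at -0.19, Hspb2 at -0.17, Hspb6 at -0.15, Hspb8 at -0.090, Hspb3 at 0.031 and Hspb1 at -0.39.

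**Figure D5:**
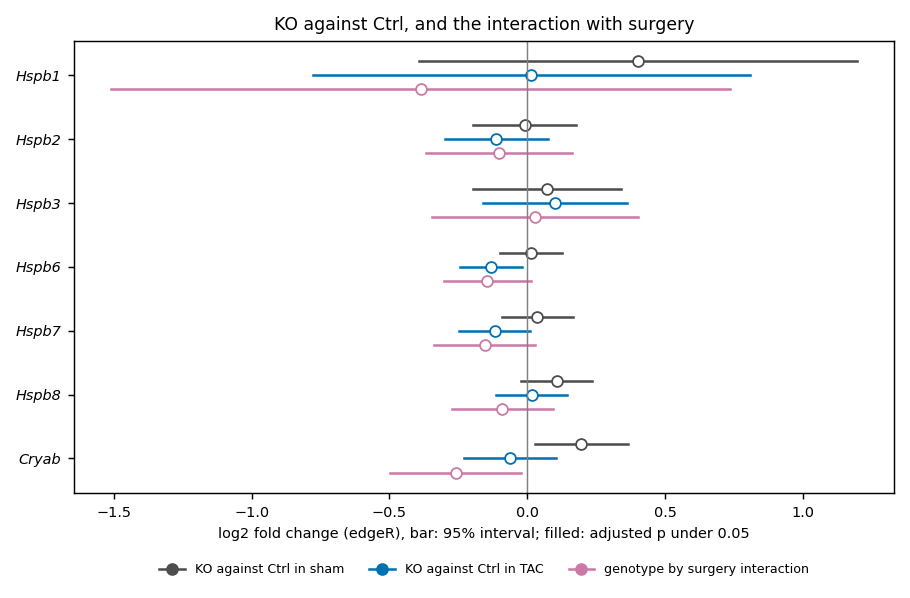
Log2 fold change of KO against Ctrl in sham and in TAC hearts, and the interaction of genotype and surgery, by edgeR with 95% intervals as bars; open circles did not reach an adjusted p below 0.05, which was so for all 21 values. Hspb1 has the widest intervals, and those of Cryab in sham (0.029 to 0.36), Hspb6 in TAC (-0.24 to -0.019) and Cryab for the interaction (-0.50 to -0.022) leave out 0.

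Genes that work with the members were taken as 4 lists. Of the filament and Z-disc clients, 6 of 8 rose in Ctrl TAC and 4 of 8 in KO TAC, beside 10.4% and 17.8% of all genes. Flnc, the filamin C gene, was at 268 to 333 CPM in Ctrl sham and 454 to 731 CPM in Ctrl TAC (log2 fold change 1.02, SE 0.153, adjusted p = 0.000259 by edgeR). In KO it was at 269 to 416 CPM in sham and 458 to 597 CPM after TAC (0.69, adjusted p = 0.00259). Des, the desmin gene, rose by 0.58 in Ctrl and 0.72 in KO (adjusted p = 3.6e-06 and 1.12e-07), and Vim, the vimentin gene, by 0.52 and 0.76. The Z-disc genes Myot (0.87), Actn2 (0.24) and Ldb3 (0.21) were the other genes of the list called in Ctrl, and Myot (0.41) in KO. Ttn, which encodes titin, did not pass in either genotype (0.099 and -0.079). The median log2 fold change of the list was 0.38 in Ctrl and 0.26 in KO.

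Of 12 BAG3 partners and genes of chaperone-assisted autophagy, 1 rose in Ctrl, Bag2 (0.36, adjusted p = 0.000331 by edgeR), where 20% of all genes were called in either direction. In KO hearts, where 34.3% of all genes were called, Bag2 (0.48) and Dnajb6 (0.21) rose and Stub1, the ubiquitin ligase CHIP, fell (-0.23, adjusted p = 0.00237). Bag3 itself was at 0.041 (SE 0.133) in Ctrl and -0.039 (SE 0.133) in KO, Hspa8 at 0.019 and -0.19, and Synpo2 at 0.17 in both, and none of these passed. Bag3 and Hspa8 are among the genes split by animal number above. Without the 4 animals numbered 33, 3 of the 12 were called in Ctrl, namely Bag2 (0.38), Hspa8 (0.26) and Bag3 (0.23, adjusted p = 0.0391 by edgeR), and 2 in KO, Bag2 (0.56) and Dnajb6 (0.32), beside 15.3% and 15.5% of all genes.

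Of 8 kinases and transcription factors, 2 were called in Ctrl and 3 in KO, beside the same 20% and 34.3% of all genes. Mapkapk2, the HSPB1 kinase gene, rose in Ctrl (0.22, adjusted p = 0.0412 by edgeR) and Mapk14, the p38α gene, fell (-0.32, adjusted p = 0.00235). In KO, 3 fell: Mapk14 (-0.41), Mapkapk3 (-0.26) and Prkd1 (-0.30, adjusted p = 0.0447). Hsf1 was at 0.097 and -0.11, and Dmpk at 0.0034 and -0.024, without a call in either genotype. Without KO TAC 4 only 1 of the list was called in Ctrl, and without the animals numbered 33 only 1 in KO. Of the other small heat shock proteins, Cryaa was at 0 in all 16 libraries, Hspb9 at no more than 0.0835 CPM and Odf1 at no more than 0.0352 CPM. Hspb11, a ciliary transport protein that carries the name only, was the 1 tested, at 2.295 ± 0.209 CPM in Ctrl sham and 2.83 ± 0.354 CPM in Ctrl TAC, and was not called. Of the 29 genes of the 4 lists that were tested, edgeR called 0 between KO and Ctrl in sham, 0 in TAC and 0 for the interaction. At an unadjusted p below 0.05 there were 0, 7 and 4 of the 29, beside 2.62%, 18.5% and 11.1% of all genes. DESeq2 called 2 of the 29 in TAC, Bag2 and Vim, beside 7.15% of all genes. Without KO TAC 4, edgeR called Bag2 there, beside 2.37% of all genes.

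Genes within 10 kb of the members were looked at as neighbours. Lin37, whose last exon meets that of Hspb6 on the other strand, was at 4.36 to 5.58 CPM in Ctrl sham and 6.02 to 6.97 CPM after TAC (0.39 on the log2 scale, adjusted p = 0.00433 by edgeR), and stood at 0.36 in KO. Proser3, which overlaps the other end of Hspb6, fell in KO (-0.44, adjusted p = 0.0121), as did Gm49396 (-0.48, adjusted p = 0.0282), so the neighbours of Hspb6 did not all move with it.

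Markers of cell types were read beside these results. The summed level of 8 cardiomyocyte markers was 53130 to 61160 CPM in Ctrl sham, 54390 to 59940 in KO sham, 47510 to 51940 in Ctrl TAC and 41680 to 43460 in KO TAC, so that this sum was lower after TAC, where 5 of 7 members rose in Ctrl and 4 of 7 in KO; in bulk tissue, fewer cells of a type and less RNA per cell cannot be told apart. Of these 8 markers, 5 fell and 1 rose in Ctrl TAC, and 6 fell and 1 rose in KO TAC. Myh6 had the highest level of the 8, with means of 24610 CPM in Ctrl sham, 23720 in KO sham, 20050 in Ctrl TAC and 15340 in KO TAC. Mybpc3 was higher after TAC, at 3464 CPM in Ctrl sham, 3575 in KO sham, 4338 in Ctrl TAC and 4114 in KO TAC. The sum thus follows Myh6 above all, and a change of this 1 gene was not told apart from a change of the cell type. The sum of 8 fibroblast markers was 579 to 706 CPM in the sham libraries, 1122 to 1594 in Ctrl TAC and 1828 to 1994 in KO TAC, with 5 and 8 of them called higher. The part of these shifts in the members' changes was not tested. The sum of 7 skeletal muscle markers was 11.6 to 17.5 CPM in sham and 27.2 to 49.9 CPM after TAC, most of it Mybpc2 (30.0 ± 3.59 CPM in KO TAC and 40.6 ± 5.15 in Ctrl TAC), while Myh1 stayed at or below 0.687 CPM, Myh2 at or below 0.164 CPM and Myh4 at or below 1.81 CPM, each being 0 in some libraries. The 4 atrial markers summed to 1.12 to 3.35 CPM.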

How the data were processed

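RNA from the apex of 16 hearts was sequenced as poly(A)-selected paired-end libraries. The authors deposited whole-number counts per Ensembl gene, used here as raw counts. Their processing notes name GRCm38, cutadapt 2.3, FastQC, HISAT2 2.1.0 and edgeR 3.26.1; the counting program and its strand setting were not given in the sources used here. Identifiers were matched to GENCODE M21 (99.5% of 55487). Groups came from the titles, and replicate numbers follow the order of accession and pair nothing. Counts were scaled by TMM, filtered with filterByExpr and fitted in edgeR 4.0.16 (quasi-likelihood, robust, 1 mean per group), with 5 contrasts and 95% intervals from the fit. DESeq2 1.42.0 and the other settings served as alternatives. The procedure was tested on simulated data. Transcript copies were searched with blastn. Total counts of 53169437 to 79404714 gave 189 to 479 counts for the least abundant member, Hspb3, in which counting error is a larger part of the spread than in the other members. The members and the lists were chosen with earlier results of these data known. Named genes were the members, Gm12295, 10 fixed genes (Bag3, Hspa8, Stub1, Synpo2, Des, Flnc, Ttn, Hsf1, Dmpk and Mapkapk2), the called gene with the largest change in each list, the 3 closest companions of each member and the called neighbours within 10 kb, of which 1 is not reported here; other genes were named after their values were seen.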

Additional observations from a re-analysis of the deposited data

Results flagged for a closer look

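In each group of 4, the gap of the highest and of the lowest library to its neighbour was set against the range (Dixon's test, 95%) for the 7 members in the 4 groups, 28 sets in all, of which chance marks about 1 in 20. The test marked 5. Ctrl sham 4 was marked for Hspb1 (345.8 CPM against 111.3 to 126.9 in the other 3), for Hspb8 (314.9 CPM against 274.2 to 277.2) and for Cryab (936.8 CPM against 841.2 to 844). All 3 are the same library, the 1 Ctrl sham animal with a number starting with 33. Without it the log2 fold change of Hspb1 after TAC in Ctrl was 0.92 in place of 0.37. Ctrl TAC 3 was marked for Hspb6 by a low value (893.5 CPM against 921.4 to 927), and KO TAC 3 for Cryab by a low value (908.9 CPM against 1084 to 1110).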

How the results depend on the processing

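The 9 values of members called after TAC (5 in Ctrl, 4 in KO) were recomputed 234 times in all, by other scaling (RLE, or without mitochondrially encoded genes), DESeq2, other count filters, fits to 8 libraries, terms for the number series, and with libraries left out. None changed direction, 230 kept an adjusted p below 0.05, and 4 did not. Fits that left out a library of the other genotype removed none of the libraries compared. They could move a value only through the filter, scaling and spread shared by all libraries. With a term for numbers starting with 25, the members called in Ctrl were 3 in place of 5, as Hspb3 and Cryab missed the threshold, and Hspb3 in Ctrl missed it without Ctrl sham 3 or without Ctrl TAC 3. The cause was not tested. The setting without the animals numbered 33 was chosen after seeing the data. Hspb3, with 189 to 479 counts per library, is the member whose depth limits it most. No paired analysis was possible because the labels give the groups no shared replicate numbers.

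Other values changed sign, all of them uncalled in the full fit. Hspb1 after TAC in KO was 1.05 with a term for numbers starting with 33, where it was called, 0.91 without those animals, and 0.017 with the term for numbers starting with 25. Leaving out 1 library at a time moved it between -0.24 and 0.23. Under the term for 33, Hspb1 was -0.17 for KO against Ctrl in sham and 0.18 for the interaction, and Hspb3 was -0.10 in sham. Without these animals, Hspb2 was 0.036 after TAC in Ctrl and 0.26 for KO against Ctrl in sham, and Hspb3 -0.18 in sham. Under the term for 25, Hspb1 was -0.050 for KO against Ctrl in TAC. Without both Ctrl TAC 2 and KO TAC 4, Hspb2 was 0.0016 after TAC in Ctrl, Hspb1 -0.016 and Hspb8 -0.027 for KO against Ctrl in TAC, and Hspb3 -0.029 for the interaction. With single libraries left out, Hspb2 ranged from -0.089 to 0.040 after TAC in Ctrl. For KO against Ctrl in sham the ranges were -0.084 to 0.060 for Hspb2, -0.017 to 0.16 for Hspb3 and -0.011 to 0.034 for Hspb6. In TAC they were -0.064 to 0.0998 for Hspb1, -0.026 to 0.056 for Hspb8 and -0.10 to 0.0019 for Cryab, and for the interaction -0.063 to 0.12 for Hspb3.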
